A study of Mus musculus with 12 samples.

Results

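Notch signalling genes were followed in mouse mammary basal and luminal epithelial cells, as a set of 10 genes picked by symbol from a table of 27179: the receptors Notch1, Notch2, Notch3 and Notch4, the ligands Jag1, Jag2 and Dll1, and the target genes Hes1, Hey1 and Heyl. All 10 were among the 14903 genes with enough counts to test. The ligands were basal genes: in control mice Jag1 was 10.9-fold, Jag2 38.9-fold and Dll1 48.5-fold lower in luminal than in basal cells. The receptor Notch3 and the targets Hes1 and Heyl had the opposite pattern, 4.95-fold, 4.32-fold and 6.78-fold higher in luminal cells. Between knockout-labelled and control cells, 1 of the 10 passed the test, Jag1, at 2.95-fold higher in luminal cells. Over all tested genes 2.21% were called higher in that comparison. The Jag1 call held in 2 of 6 fits that each left out 1 library, and its effect was not shown to differ from that in basal cells.

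Notch receptors are single-pass membrane proteins that are switched on by Jagged or Delta-like ligands on a neighbouring cell. Ligand binding exposes the receptor to ADAM10 and then to gamma-secretase, which frees the intracellular domain to enter the nucleus, join the DNA-binding protein RBPJ and a Mastermind coactivator, and turn on genes of the HES and HEY repressor families. In the mammary gland Notch activity is known for its part in the choice between basal and luminal fates, with Notch3 described in luminal progenitors.

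The libraries came from 4 groups of 3 biological replicates, all from female mice. Control basal and luminal cells were from Foxp1(fl/fl) mice, in which Foxp1, a forkhead transcription factor, carries floxed alleles. Knockout-labelled basal and luminal cells were from MMTV-cre/Foxp1(fl/fl) mice, so every group carries the floxed alleles and the groups compared differ in the Cre transgene. The MMTV promoter drives Cre in mammary epithelium and is also known to be active in some other tissues. The sources used here do not give the age of the mice, the markers used to separate the cells or any pooling of animals. Libraries held 9769361 to 15449513 counts. Levels are given as CPM, the usual library-size-scaled counts, with TMM factors, and where genes are set against each other as CPM per kb of the deposited gene length.

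The targeted gene was read first. Foxp1 was at 221, 213 and 160 CPM in the basal control libraries and 212, 193 and 284 CPM in basal knockout-labelled ones. In luminal cells it was at 82.3, 62.0 and 78.2 CPM in the controls and reached 161, 150 and 155 CPM in knockout-labelled libraries. The Foxp1 count was therefore not lower in either knockout-labelled group, and in luminal cells it was higher (log2 fold 1.07, SE 0.19, adjusted p = 0.0161 by edgeR's quasi-likelihood test, in 3 of 3 libraries). A gene count also takes reads from outside the deleted exons, so it does not check the deletion, and the libraries are called knockout-labelled throughout.

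The cell type labels were checked with marker lists. The 10 basal epithelial markers summed to 19100 to 27200 CPM over the basal libraries and to 202 to 1090 CPM over the luminal ones. The 12 luminal markers summed to 1380 to 2690 CPM in basal and 10800 to 21800 CPM in luminal libraries. Fibroblast markers (12 genes) summed to 2180 to 3160 CPM in basal control, 3520 to 5340 CPM in basal knockout-labelled and 104 to 498 CPM in luminal libraries. Postn made up most of the sum in basal controls, at 1270 to 2360 CPM, with a log2 fold of 0.02 between knockout-labelled and control basal cells, while Col1a1 was at 55.7 to 105 CPM in basal controls and 239 to 378 CPM in basal knockout-labelled libraries. In that comparison all 12 had positive folds, 10 had an unadjusted p under 0.05 and groups that did not overlap, and 2 were called higher, Pdgfra (log2 fold 2.41) and Dpp4 (2.85), against 0.611% of all tested genes. Endothelial markers (14 genes) summed to 113 to 247 CPM. Pericyte markers (8 genes) summed to 27.9 to 430 CPM and macrophage markers (8 genes) to 44.4 to 283 CPM. No marker was at 0 in any group. Single genes made up most of some sums, as Cd14 did for macrophage markers in luminal controls, at 197 to 259 CPM. Ptprc, of the same list, was at 0 to 2.21 CPM there. In basal controls Mcam held most of the pericyte sum, at 133 to 374 CPM. Vwf, an endothelial marker, was at 49.3 to 77.3 CPM in luminal controls. In bulk samples, fewer cells of a type and less RNA per cell cannot be told apart.

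The sequences before the transcription starts of the 3 ligand genes are shown because these genes had the largest cell type differences of the 10 in controls, all lower in luminal cells. Each line gives 250 bases before an annotated transcript start (RefSeq, GRCm38.p6, minus strand, read 5′ to 3′), with CpG pairs in capitals. Dll1 has a pair of annotated starts, and both windows are given. The genes themselves span chr2:137081451-137116520 (Jag1), chr12:112907803-112929812 (Jag2) and chr17:15367354-15376932 (Dll1), so the inner Dll1 window and the Jag2 window lie within the annotated gene span.
Jag1, chr2:137116521-137116770: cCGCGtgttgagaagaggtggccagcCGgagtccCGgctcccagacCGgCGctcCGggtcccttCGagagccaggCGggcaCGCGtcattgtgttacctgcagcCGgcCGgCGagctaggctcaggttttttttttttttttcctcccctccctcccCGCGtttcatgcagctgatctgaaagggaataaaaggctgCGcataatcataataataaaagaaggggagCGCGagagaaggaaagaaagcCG
Jag2, chr12:112929496-112929745: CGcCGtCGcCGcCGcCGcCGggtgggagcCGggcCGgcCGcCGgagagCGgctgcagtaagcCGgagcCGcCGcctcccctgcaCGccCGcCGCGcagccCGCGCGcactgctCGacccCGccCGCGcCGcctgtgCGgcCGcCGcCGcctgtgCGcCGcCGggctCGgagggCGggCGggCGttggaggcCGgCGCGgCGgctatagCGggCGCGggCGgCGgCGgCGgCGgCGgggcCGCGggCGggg
Dll1 inner start, chr17:15375824-15376073: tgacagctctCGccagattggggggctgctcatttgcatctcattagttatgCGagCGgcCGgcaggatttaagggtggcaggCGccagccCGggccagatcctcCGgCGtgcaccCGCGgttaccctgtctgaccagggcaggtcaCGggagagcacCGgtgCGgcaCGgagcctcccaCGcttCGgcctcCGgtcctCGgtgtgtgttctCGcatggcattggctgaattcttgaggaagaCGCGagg
Dll1 outer start, chr17:15376933-15377182: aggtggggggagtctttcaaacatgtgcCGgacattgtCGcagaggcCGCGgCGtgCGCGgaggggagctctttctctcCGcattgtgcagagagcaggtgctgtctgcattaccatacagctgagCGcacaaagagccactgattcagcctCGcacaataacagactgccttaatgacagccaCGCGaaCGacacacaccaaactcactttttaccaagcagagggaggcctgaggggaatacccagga
The Jag2 window was the richest of the 4 in G and C, at 87.2% with 54 CpG pairs, against 57.2% with 20 pairs for Jag1 and 64.0% and 56.0% with 21 and 13 pairs for Dll1. The median over all 32851 RefSeq windows of this length was 52.4%. Of the 10 genes, 7 had such windows, and Hes1, Hey1 and Heyl had none to read. Neither GTGGGAA, a core that RBPJ binds, nor GTAAACA, a core that forkhead factors bind, was found on either strand of the 8 windows of these 7 genes. Over all windows 5.42% held the first and 3.17% the second. A missing match says only that these letters are not in the window.

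On the same build Notch1 lies at chr2:26457902-26503822, Notch2 at chr3:98013538-98150367, Notch3 at chr17:32120820-32166896 and Notch4 at chr17:34564286-34588543. The target genes lie at chr16:30065357-30067796 (Hes1), chr3:8663359-8667038 (Hey1) and chr4:123233556-123249870 (Heyl).

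Among the receptors, Notch1 and Notch2 were present in both cell types, Notch3 was mainly luminal, and Notch4 had the lowest level in each group. Notch1, the receptor with the highest mean in 3 of the 4 groups per kb, was at 15.6 ± 1.2 CPM per kb in basal controls, 27.9 ± 5.59 in basal knockout-labelled, 24.2 ± 7.02 in luminal control and 20.3 ± 1.85 in luminal knockout-labelled cells (mean ± SD, n = 3). In luminal knockout-labelled cells Notch3 had the higher mean, at 27.6 ± 5.68 CPM per kb, and was at 21.3 ± 5.61 in luminal controls, with 4.30 ± 2.99 and 6.66 ± 4.09 in basal control and knockout-labelled cells. Notch4, known mainly from endothelium, stayed at 0.174 to 0.461 CPM per kb in the group means, from 41 to 91 counts a group.

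Of the ligands Dll1 led in basal cells, at 130 ± 47.4 CPM per kb in controls, ahead of Jag1 at 67.0 ± 18.3 and Jag2 at 52.7 ± 22.7. In luminal controls the order was Jag1 at 6.13 ± 1.46, Dll1 at 2.68 ± 0.551 and Jag2 at 1.36 ± 0.228 CPM per kb. Among the targets Hes1, a bHLH repressor, was the most abundant per kb, with 45.9 ± 16.5 in basal and 198 ± 29.8 in luminal controls. Hey1 followed with 12.6 ± 1.93 and 27.2 ± 25.2, and Heyl was low at 0.671 ± 0.140 and 4.56 ± 1.95 CPM per kb.

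**Figure D1:**
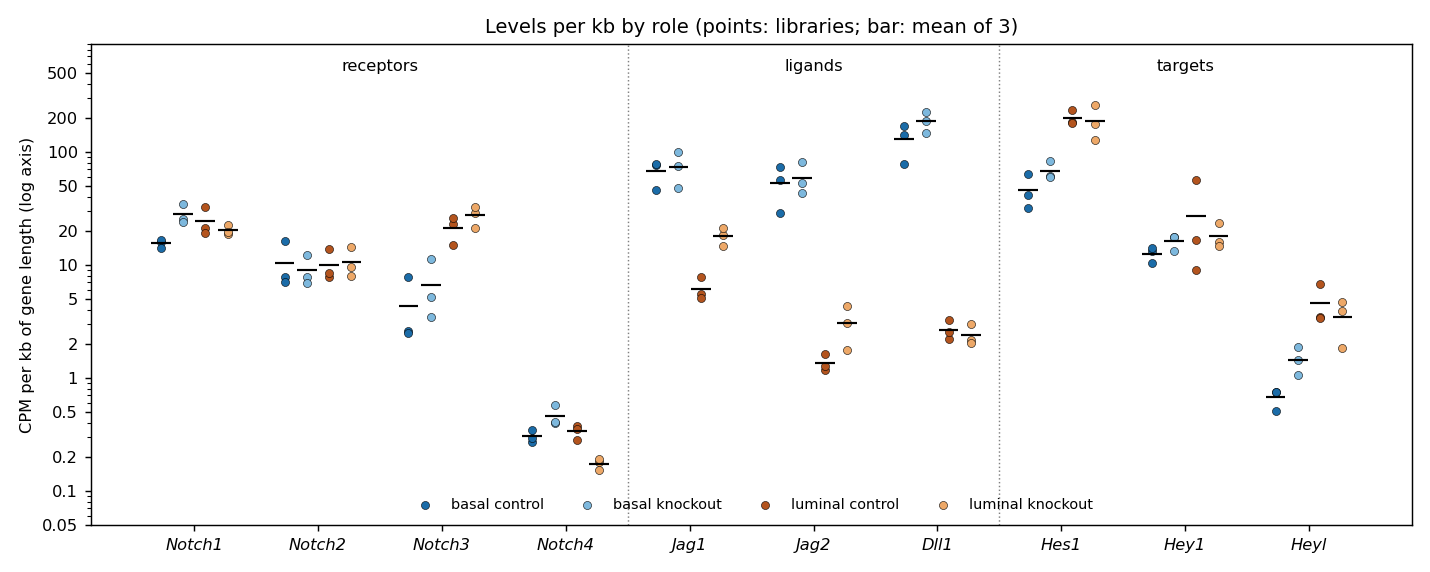
Levels of the 10 genes in CPM per kb of gene length (log axis), 4 groups a gene, with 1 point a library and a bar at the mean of 3. Ligands sit high in basal (blue) and low in luminal (orange) libraries, Notch3, Hes1 and Heyl the other way round, and Notch4 is at the bottom of the plot.

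The comparison of luminal with basal cells asks in which cell type each gene is transcribed. In controls 7 of the 10 passed the test at an adjusted p under 0.05, 4 higher and 3 lower in luminal cells. Over all 14903 tested genes 16.3% were called higher and 16.8% lower. In the knockout-labelled libraries 3 were higher and 4 lower, against 19.2% and 21.4% of all tested genes. The median log2 fold of the 10 was 0.40 in controls, where that of all genes was 0.038, and -0.16 in knockout-labelled cells, where it was 0.033.

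Notch1 was at 152, 157 and 135 CPM in basal and 202, 306 and 182 CPM in luminal controls, so every luminal control was above every basal one (log2 fold 0.64, SE 0.21, adjusted p = 0.0400, edgeR). That call was lost on leaving out basal control 1 (adjusted p = 0.102, edgeR), 2 (0.0775) or 3 (0.0929), or luminal control 1 (0.0568) or 2 (0.172, log2 fold 0.38), and when only the control libraries were fitted (0.0889). Among knockout-labelled libraries the order was turned, with 242, 227 and 325 CPM in basal and 179, 212 and 186 CPM in luminal cells, which was not called (log2 fold -0.46, SE 0.21, adjusted p = 0.107, edgeR). In the order of group means, neighbours overlapped except luminal knockout-labelled and basal control cells.

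Notch2 had no cell type difference that passed the test. It was at 81.6, 73.7 and 173 CPM in basal and 82.4, 88.8 and 144 CPM in luminal controls, and all 4 groups overlapped, since the third library of each group was its highest. Its log2 fold of luminal against basal was -0.06 (SE 0.37, adjusted p = 0.919, edgeR) in controls and 0.25 (SE 0.37, adjusted p = 0.615, edgeR) in knockout-labelled cells.

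Notch3 was at 20.8, 20 and 61.5 CPM in basal and 183, 205 and 119 CPM in luminal controls. In knockout-labelled cells it was at 41.6, 89.6 and 27.6 CPM in basal and 229, 258 and 170 CPM in luminal libraries. Every luminal library was above every basal one, although basal control 3 and basal knockout-labelled 2 stood well above the others of their groups. It was higher in luminal cells in controls (log2 fold 2.31, SE 0.51, adjusted p = 0.00478, edgeR) and in knockout-labelled cells (2.05, SE 0.50, adjusted p = 0.00710, edgeR), and both calls held in each of 6 fits that left out 1 library.

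Notch4 was at 2.28, 1.79 and 1.94 CPM in basal and 1.87, 2.50 and 2.31 CPM in luminal controls, which overlapped (log2 fold 0.15, SE 0.30, adjusted p = 0.726, edgeR). In knockout-labelled cells it was at 2.63, 2.69 and 3.80 CPM in basal and 1.2, 1.25 and 1 CPM in luminal libraries, a clear gap (log2 fold -1.40, SE 0.30, adjusted p = 0.00371, edgeR). In luminal against basal knockout-labelled cells, 9 of 14 endothelial markers were called lower and 1 higher, with a median log2 fold of -2.15. In controls 0 of the 14 were lower and 1 higher, with a median of -0.55. Over all tested genes 21.4% and 16.8% were called lower. Pericyte markers had 7 of 7 lower in knockout-labelled cells and 5 of 7 in controls (medians -4.09 and -1.83). Fibroblast markers had 11 of 12 and 3 of 12 lower (-3.95 and -0.94), and macrophage markers 1 of 5 in each (0.02 and -0.08). Higher were 0 and 1 fibroblast and 2 and 1 macrophage markers. The part of these lists in the Notch4 value was not tested.

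The ligands separated the cell types in all 12 libraries. Jag1, the ligand mutated in Alagille syndrome, was at 424, 252 and 429 CPM in basal and 30, 28.1 and 42.8 CPM in luminal controls, a log2 fold of -3.45 (SE 0.32, adjusted p = 1.87e-05, edgeR). In knockout-labelled libraries it was at 413, 263 and 543 CPM in basal and 81.3, 101 and 115 CPM in luminal cells (log2 fold -2.03, SE 0.30, adjusted p = 0.000369, edgeR). The lowest basal library was thus still more than any luminal one.

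Jag2, the other Jagged ligand, was at 226, 299 and 116 CPM in basal and 4.77, 5.18 and 6.54 CPM in luminal controls, a log2 fold of -5.28 (SE 0.46, adjusted p = 1.20e-05, edgeR). In knockout-labelled cells it was at 213, 332 and 175 CPM in basal and 7.18, 17.6 and 12.5 CPM in luminal libraries (log2 fold -4.27, SE 0.43, adjusted p = 2.63e-05, edgeR). The second library was the highest of its group in both basal groups.

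Dll1, a Delta-like ligand, was at 584, 487 and 267 CPM in basal and 7.58, 8.69 and 11.3 CPM in luminal controls, a log2 fold of -5.60 (SE 0.35, adjusted p = 2.27e-06, edgeR). In knockout-labelled cells it was at 641, 504 and 773 CPM in basal and 7.48, 6.98 and 10.2 CPM in luminal libraries (log2 fold -6.27, SE 0.36, adjusted p = 1.19e-06, edgeR). It had the largest fold of the 10 genes in both comparisons of cell types, and all calls of the 3 ligands held in each fit that left out 1 library.

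Among the targets, Hes1 was at 92.9, 60.8 and 46.0 CPM in basal and 265, 337 and 260 CPM in luminal controls, a log2 fold of 2.11 (SE 0.31, adjusted p = 0.000373, edgeR). In knockout-labelled cells it was at 121, 88.1 and 86.0 CPM in basal and 184, 256 and 375 CPM in luminal libraries (log2 fold 1.47, SE 0.30, adjusted p = 0.00279, edgeR). Basal and luminal libraries did not overlap in either.

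Heyl, a HEY-family repressor, was at 3.42, 3.39 and 2.31 CPM in basal and 30.9, 15.8 and 15.3 CPM in luminal controls, a log2 fold of 2.76 (SE 0.42, adjusted p = 0.000448, edgeR). In knockout-labelled cells the groups met, with 6.48, 8.42 and 4.78 CPM in basal and 21.1, 8.32 and 17.6 CPM in luminal libraries (log2 fold 1.25, SE 0.39, adjusted p = 0.0249, edgeR). The call in knockout-labelled cells was lost without basal knockout-labelled 1 (adjusted p = 0.0688, edgeR) or 3 (0.0938) or luminal knockout-labelled 1 (0.0967) or 3 (0.0684).

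Hey1 was at 29.2, 31.0 and 22.9 CPM in basal and 36.9, 123 and 19.8 CPM in luminal controls, where luminal control 2 stood far above the others. It did not pass in controls (log2 fold 1.12, SE 0.51, adjusted p = 0.116, edgeR). Without luminal control 2 the log2 fold was 0.04, and without luminal control 3 it was 1.49 with an adjusted p of 0.0169 (edgeR). In knockout-labelled cells it was at 29.4, 38.8 and 39.1 CPM in basal and 35.2, 51.3 and 32.4 CPM in luminal libraries (log2 fold 0.15, SE 0.50, adjusted p = 0.839, edgeR), and groups next to each other in the order of the 4 means overlapped.

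**Figure D2:**
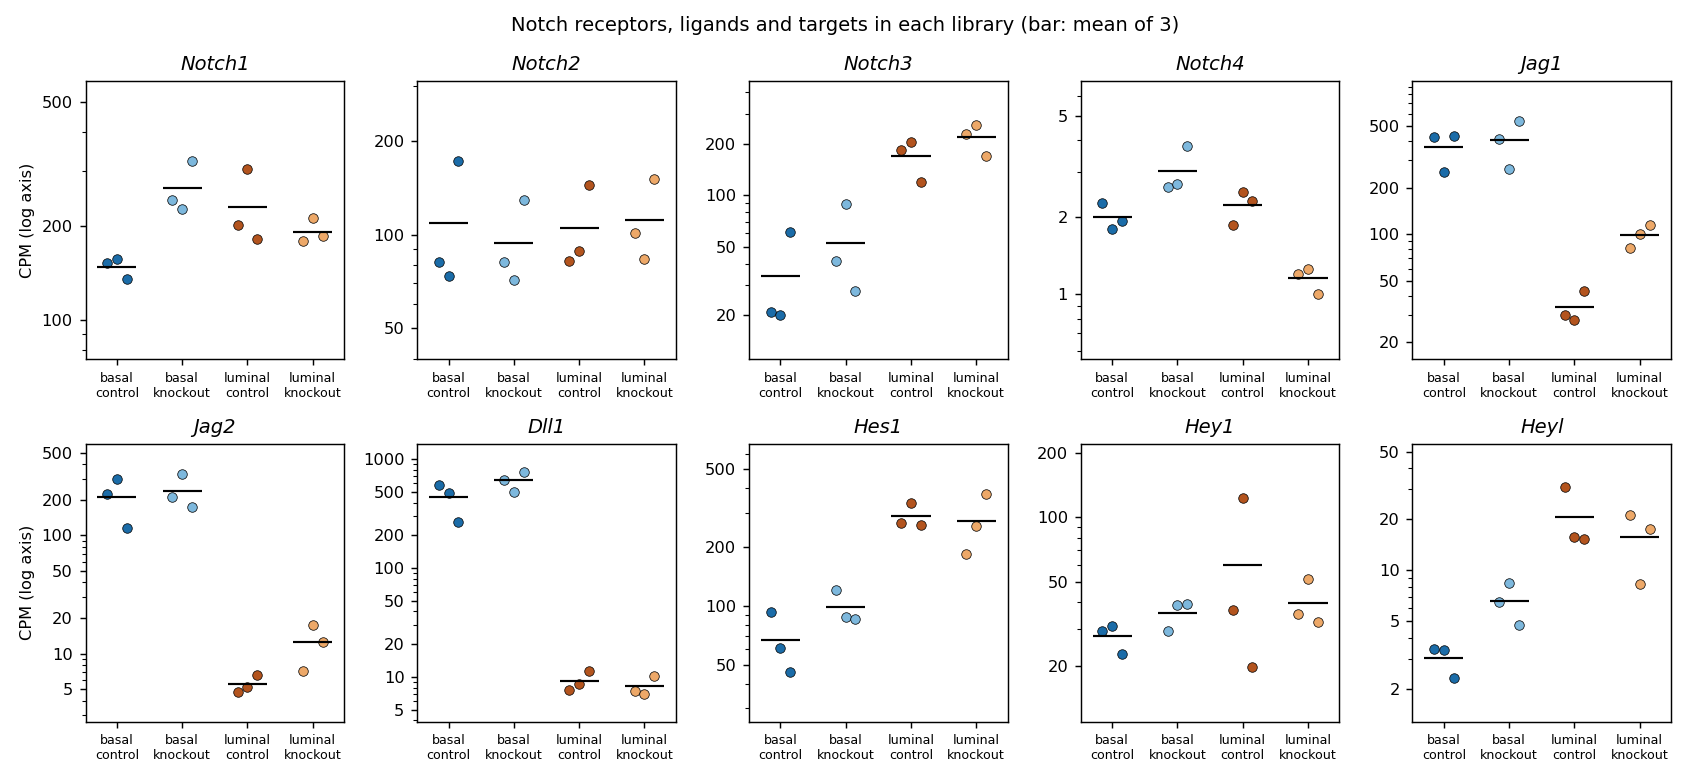
CPM (log axis, scale set for each gene) of the 10 genes in each library of the 4 groups, with bars at the mean of 3; knockout means knockout-labelled. Luminal libraries are below basal ones for Jag1, Jag2 and Dll1 and above them for Notch3 and Hes1, all 4 groups overlap for Notch2, and for Hey1 the groups next to each other in the order of means do.

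The comparison of knockout-labelled with control basal cells asks what moved with the Cre transgene. By edgeR 0 of the 10 genes passed, and 2, Notch1 and Heyl, had an unadjusted p under 0.05. Over all 14903 tested genes 1324 had such a p. DESeq2 called 1 (Notch1, adjusted p = 0.0107) and limma-voom 0. Over all tested genes edgeR called 0.611% higher and 0.0604% lower. The groups did not overlap for Notch1, Notch4 and Heyl, all higher in knockout-labelled cells, which is 3 of 10 genes against 12.4% of all tested genes. The log2 fold was positive for 9 of the 10 and for 7270 of all 14903 tested genes. Its median was 0.54 for the 10 and -0.01 for all tested genes.

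Notch1 was higher in 3 of 3 basal knockout-labelled libraries, which at 227 to 325 CPM lay above the 135 to 157 CPM of the controls (log2 fold 0.84, SE 0.22, adjusted p = 0.124, edgeR). Heyl was at 2.31 to 3.42 CPM in controls and at 4.78 to 8.42 CPM in knockout-labelled libraries, and did not pass (log2 fold 1.11, SE 0.41, adjusted p = 0.368, edgeR). Notch4 had a log2 fold of 0.60 (SE 0.29, adjusted p = 0.624, edgeR). For the other 7 the groups overlapped, with log2 folds from -0.22 for Notch2 to 0.63 for Notch3. On leaving out 1 library the fold of Notch3 ran from 0.02 to 1.37, and that of Notch2 turned to 0.27 without basal control 3. Beside these values, all 12 fibroblast markers had positive folds in this comparison, with a median log2 fold of 2.45, and the 10 basal markers had a median of -0.06. Of the 12 luminal markers 9 had positive folds, with a median of 0.32, 5 an unadjusted p under 0.05 and 0 an adjusted p under 0.05 (edgeR). Krt19, which is among them, was at 74.2, 45.6 and 83.5 CPM in basal controls and 262, 200 and 149 CPM in knockout-labelled libraries. Elf5, of the same list, had a lower mean in knockout-labelled libraries. It was at 2.49, 4.02 and 8.78 CPM in basal controls and 2.53, 2.69 and 1.19 CPM in knockout-labelled ones, which overlapped. Of the 7 pericyte markers tested 6 were positive, with a median of 1.05. Their part in the Notch values was not tested.

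In luminal cells the same comparison called 1 of the 10, Jag1. Over all tested genes 2.21% were called higher and 0.819% lower, and 7.36% in either direction with the replicate number as a block. The groups did not overlap for Jag1 and Jag2, which were higher, and Notch4, which was lower in knockout-labelled cells, again 3 of 10 genes, against 25.4% of all tested genes. The median log2 fold was -0.12 for the 10 and -0.028 for all tested genes.

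Jag1 rose from 30, 28.1 and 42.8 CPM in luminal controls to 81.3, 101 and 115 CPM in luminal knockout-labelled libraries, higher in 3 of 3 (log2 fold 1.56, SE 0.30, adjusted p = 0.0193, edgeR). With replicate number as a block the log2 fold was 1.59 (adjusted p = 0.00431, edgeR). The call was lost on leaving out luminal control 1 (adjusted p = 0.0896, edgeR) or 2 (0.0952) or luminal knockout-labelled 2 (0.0662) or 3 (0.0758), with log2 folds between 1.43 and 1.79 over the 6 fits. Jag2 was at 7.18 to 17.6 CPM against 4.77 to 6.54 CPM, which did not pass (log2 fold 1.18, SE 0.41, adjusted p = 0.154, edgeR). Dll1, the third basal ligand, had a log2 fold of -0.15 (SE 0.30, adjusted p = 0.854, edgeR).

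Since these ligands are basal genes, their luminal levels were set beside those of the basal markers, each as a percentage of the mean of the basal libraries of the same genotype. Jag1 was at 9.13% in luminal controls and reached 20, 24.9 and 28.3% in knockout-labelled ones. Jag2 was at 2.57% and 5.18% in the group means, and Dll1 at 2.06% and 1.29%. Of the basal markers, the smooth muscle genes Acta2 (0.490% and 0.483%), Myh11 (0.555% and 0.397%) and Cnn1 (0.847% and 0.824%) stayed under 1% in the means of both groups. The keratins Krt5 (2.92% and 4.07%), Krt14 (2.32% and 4.69%) and Krt17 (2.24% and 5.29%) had higher means in knockout-labelled cells, but the groups overlapped through luminal control 3, at 7.87%, 5.22% and 3.38%. Tagln (2.03% and 0.993%), Oxtr (10.2% and 2.36%) and Mylk (0.823% and 0.484%) had lower means in knockout-labelled cells, and the groups of Tagln did not overlap. Over the 10 basal markers 4 had positive log2 folds between knockout-labelled and control luminal cells, with a median of -0.30.

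The basal transcription factor Trp63, encoding p63, went from 2.27% to 14.3% and was the 1 of 10 basal markers called in this comparison (log2 fold 2.80, SE 0.58, adjusted p = 0.0253, edgeR). It lost its call without luminal control 1 (adjusted p = 0.118, edgeR) or 2 (0.0631) or luminal knockout-labelled 2 (0.0909) or 3 (0.0785). The 10 basal markers together summed to 234, 202 and 808 CPM in luminal controls and to 410, 1090 and 742 CPM in luminal knockout-labelled libraries, which overlap. Of the 12 luminal markers 0 were called in this comparison. Their log2 folds ran from -0.91 to 1.71, with a median of 0.13, and 6 were positive. The groups did not overlap for 3 of the 12, all higher in knockout-labelled cells, against 25.4% of all tested genes. Prlr, 1 of these, was at 745 to 1290 CPM in controls and 1640 to 2750 CPM in knockout-labelled libraries. Elf5 was at 90.7 to 271 and 68.6 to 102 CPM, which overlapped. The part of basal cells, or of the mix of luminal cells, in the luminal Jag1 value was not tested.

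**Figure D3:**
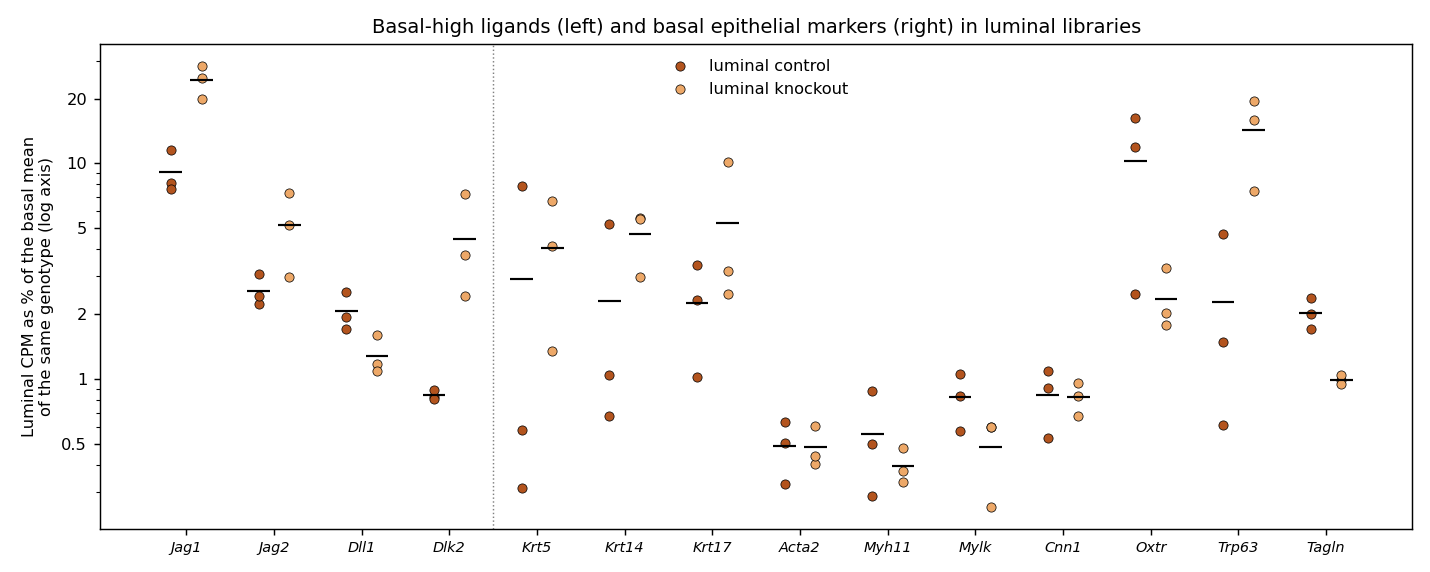
CPM in each luminal library as a percentage of the basal mean of the same genotype (log axis), for 4 basal-high ligand genes and 10 basal markers; knockout means knockout-labelled, and bars are means of 3. Jag1 and Trp63 have the largest knockout-labelled means, 24.4% and 14.3%, while Acta2, Myh11, Mylk and Cnn1 stay under 1% in the means of both groups.

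The other luminal values did not pass. Notch4 was at 1 to 1.25 CPM in knockout-labelled against 1.87 to 2.50 CPM in control luminal cells (log2 fold -0.95, SE 0.31, adjusted p = 0.128, edgeR). Endothelial markers had 0 of 14 called and a median log2 fold of -1.2 in the same comparison. Of the 14, 2 had positive folds, and the groups overlapped for all 14. An unadjusted p under 0.05 was found for 7 of the 14, against 2567 of all 14903 tested genes. Pericyte, fibroblast and macrophage markers had median log2 folds of -0.9, -0.43 and -0.98. The part of these markers was not tested. For the other receptors the log2 folds were -0.26 for Notch1, 0.09 for Notch2 and 0.37 for Notch3. The targets had log2 folds of -0.08 for Hes1, -0.60 for Hey1 and -0.40 for Heyl, with overlapping groups in all 3. Each turned on leaving out a library, Hes1 to 0.13 without luminal knockout-labelled 1, Hey1 to 0.48 without luminal control 2 and Heyl to 0.03 without luminal control 1.

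Whether the knockout-labelled difference itself differed between luminal and basal cells was tested as an interaction. Over all tested genes 0.275% were called and of the 10 genes edgeR called 0. An unadjusted p under 0.05 was found for 1467 of all 14903 tested genes and for 4 of the 10. These were Notch4 (log2 difference, luminal minus basal, -1.55, SE 0.42, adjusted p = 0.171, edgeR), Notch1 (-1.10, SE 0.30, adjusted p = 0.176, edgeR), Jag1 (1.42, SE 0.42, adjusted p = 0.215, edgeR) and Heyl (-1.51, SE 0.56, adjusted p = 0.366, edgeR). DESeq2 called Notch1 alone (-1.08, adjusted p = 0.0313) and limma-voom called 0. The Jag1 difference between knockout-labelled and control cells is therefore called in luminal cells without being shown to differ from that in basal cells, where its log2 fold was 0.14.

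**Figure D4:**
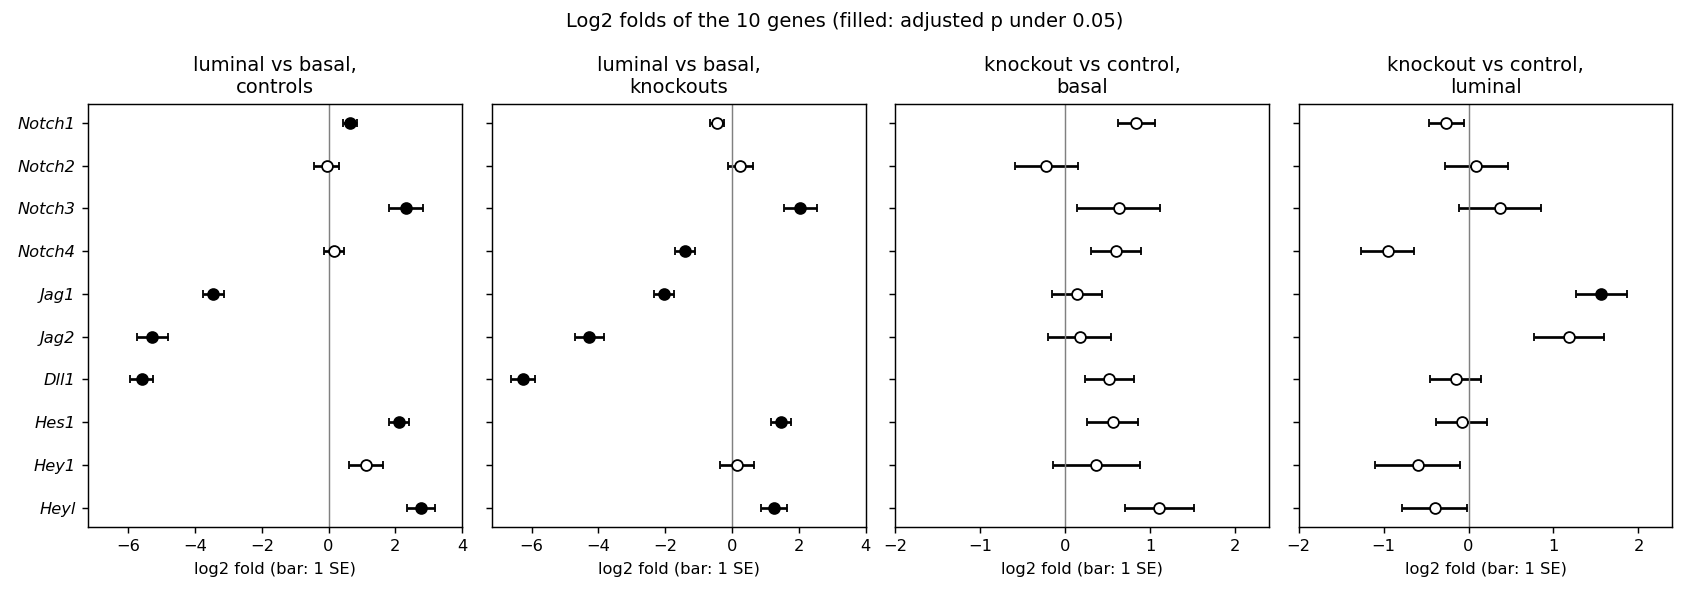
Log2 folds of the 10 genes in 4 comparisons, with bars of 1 SE; filled points have an adjusted p under 0.05 and the axis range differs between the left and right pairs of panels; knockouts means knockout-labelled. The ligands lie far to the left in both comparisons of cell types, and Jag1 in luminal cells is the 1 filled point among the knockout-labelled comparisons.

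Around these 10 genes, 51 other genes of the pathway were read, of which 46 could be tested. Dll3, Hes2, Hes3, Hes5 and Hes7 had too few counts. In controls 9 of the 46 were higher and 9 lower in luminal cells. Over all tested genes 16.3% and 16.8% were, so both counts are near the background. In knockout-labelled cells 10 were higher and 14 lower, against 19.2% and 21.4% of all tested genes. The counts by gene group below are to be read against the same shares. In controls, 10 of the 18 calls held in each fit that left out 1 library, and the genes described next are among these unless stated.

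Of the other ligands, Dlk1 and Dlk2, which lack the domain that activates Notch, were basal genes like Jag2 and Dll1. Dlk2 had 357 counts over the basal controls and 3 over the luminal controls, a ratio of 118 (95% counting interval 40.1 to 576), and Dlk1 had a log2 fold of -3.93 (SE 0.60, adjusted p = 0.000461, edgeR). In knockout-labelled cells Dlk1 had 117 basal and 3 luminal counts, a ratio of 46.7 (95% counting interval 15.6 to 229). Dll4, the endothelial Delta-like ligand, was at 3.22 to 5.23 CPM in all controls and was not called.

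Of the 3 Fringe enzymes, which add sugars to the receptors and shift their choice of ligand, Lfng and Rfng were lower in luminal cells. Lfng was at 26, 36.7 and 15.3 CPM in basal and 7.20, 7.40 and 8.24 CPM in luminal controls, a log2 fold of -1.77 (SE 0.32, adjusted p = 0.00142, edgeR), and Rfng had a log2 fold of -1.30 (SE 0.17, adjusted p = 0.000143, edgeR). In all, 3 of 5 glycosylation genes were lower in controls and 4 of 5 in knockout-labelled cells, with 0 higher in either. Poglut1 lost its calls on leaving out single libraries. Mfng, the third Fringe gene, had 3 to 17 counts a library and was not called in controls (adjusted p = 0.0525, edgeR). It was called in knockout-labelled cells (log2 fold -1.35), a call lost by DESeq2 (adjusted p = 0.0540) and in 4 of the 6 fits that left out a library, those without basal knockout-labelled 2 (0.0645, edgeR) or 3 (0.0530) or luminal knockout-labelled 1 (0.0867) or 2 (0.0718).

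The cleavage enzymes went the other way, with 4 of 9 higher in luminal cells in each genotype and 0 lower. Adam10, the sheddase that makes the first cut, was at 75.8, 69.9 and 117 CPM in basal and 267, 184 and 260 CPM in luminal controls, a log2 fold of 1.44 (SE 0.23, adjusted p = 0.000746, edgeR). In knockout-labelled cells the log2 fold of Adam10 was 2.34 (SE 0.24, adjusted p = 3.13e-05, edgeR), and the gamma-secretase subunits Aph1c (2.32) and Psen2 (1.40) were higher too. In controls Aph1c (1.27), Psen2 (0.93) and Psenen (0.80) were called. Of the 6 fits that left out a library, the call held in 5 for Psen2, in 3 for Aph1c and in 0 for Psenen.

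Of 14 genes for ligand and receptor trafficking, Numbl, related to the Notch inhibitor Numb, was lower in luminal cells (log2 fold -2.44 in controls and -2.04 in knockout-labelled cells) and the Deltex gene Dtx4 was higher (2.36 and 2.29). In all 2 of the 14 were higher and 2 lower in controls, near the shares of all tested genes. In knockout-labelled cells 4 were higher and 1 lower. Rbpj, the DNA-binding partner of Notch, was lower in luminal cells. It was at 82.9, 71.3 and 53.4 CPM in basal and 42.1, 38.3 and 31.6 CPM in luminal controls, a log2 fold of -0.89 (SE 0.19, adjusted p = 0.00444, edgeR), and its log2 fold was -1.14 in knockout-labelled cells. The corepressor gene Tle1 was lower too (-0.98 and -1.41). Of 12 nuclear genes 2 were lower in controls, near the 16.8% of all tested genes. In knockout-labelled cells 7 were lower, against 21.4% of all tested genes, with 0 higher in either genotype.

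Of the feedback and further HES and HEY genes all 3 tested were higher in luminal controls. Nrarp, a Notch-induced feedback inhibitor, was at 26, 21.2 and 26.5 CPM in basal and 66.5, 64.0 and 38.9 CPM in luminal controls, a log2 fold of 1.2 (SE 0.24, adjusted p = 0.00258, edgeR). Hey2 (1.25) and Hes6 (1.05) were called in controls, but each held in 1 of the 6 fits that left out a library. In knockout-labelled cells 2 of the 3 were called, Hey2 (1.62) and Hes6 (0.94), and Nrarp was not (log2 fold 0.54, SE 0.24, adjusted p = 0.0874, edgeR). The Hes6 call there held in 2 of the 6 fits.

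**Figure D5:**
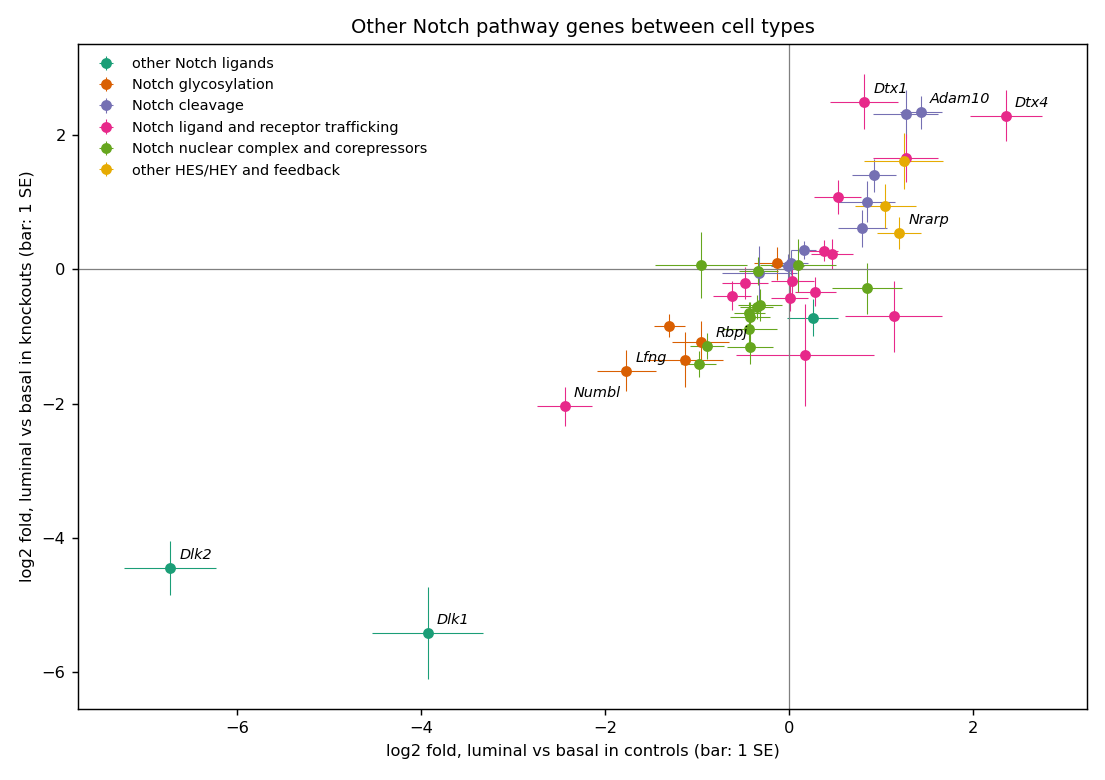
Log2 folds of luminal against basal cells for the 46 other pathway genes, in controls (x axis) and in knockout-labelled cells (y axis), with bars of 1 SE and colours for the gene groups. Dlk1, Dlk2, Numbl and Lfng lie in the lower left, and Adam10, Dtx4 and Nrarp in the upper right.

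Between knockout-labelled and control basal cells 0 of the 46 other pathway genes passed by edgeR, where 0.611% of all tested genes were called higher and 0.0604% lower. An unadjusted p under 0.05 was found for 4 of the 46 and for 1324 of all 14903, so the share is near the background. The lowest p was that of the Deltex gene Dtx1, at 2.49, 3.75 and 1.94 CPM in controls and 0.709, 0.717 and 0.543 CPM in knockout-labelled libraries (log2 fold -2.03, SE 0.42, adjusted p = 0.0546, edgeR). It passed by DESeq2 (adjusted p = 0.00566), with the replicate block (0.0224, edgeR) and without basal control 3 (0.0458, edgeR). Numb had the next lowest p (log2 fold 0.73, SE 0.22, adjusted p = 0.199, edgeR).

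In luminal cells 1 of 46 passed, near the 2.21% of all tested genes called higher. This was Dlk2 (log2 fold 2.4, SE 0.58, adjusted p = 0.0494, edgeR). The Dlk2 value rests on 1 count in each control library against 3, 10 and 7 counts in the knockout-labelled ones, a ratio of 5.79 (95% counting interval 1.72 to 30.5). The call was lost with library size alone, with no filter, by DESeq2 and by limma-voom (adjusted p from 0.0566 to 0.188), and without any 1 of luminal controls 1, 2 and 3 or luminal knockout-labelled 2 and 3 (adjusted p up to 0.252, edgeR). The interaction called 0 of 46.

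Genes with profiles most like each of the 10 were taken by the smallest root mean square difference of centred log2 CPM over the 12 libraries, for genes with an average log2 CPM above 1. A small count was added to every value before the log, which draws low values together. For Jag2 the closest was Dlk2 (0.30), ahead of Bmp7 and Ccnd2 (0.39 each), while Jag2 itself had a standard deviation of 2.54. Dlk2 had 1 count in each luminal control, so its distance depends in part on the added count. The fitted log2 folds of luminal against basal controls were -6.73 for Dlk2 and -5.28 for Jag2. For Dll1, with a standard deviation of 3.10, the closest were Synpo2 (0.37), Vcan (0.43) and Adgrb2 (0.44). For Jag1 (1.57) they were P4ha1 (0.35), Phlda3 and Slc16a3 (0.40 each).

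For the luminal-high genes the closest profiles were Barx2 for Notch3 (0.37 against a standard deviation of 1.38), Uap1l1 for Hes1 (0.29 against 1.02) and Smim1 for Heyl (0.44 against 1.16). Notch1, Notch2, Notch4 and Hey1 varied less, by 0.39, 0.44, 0.51 and 0.66, and their closest genes were Itm2b (0.22), Lars (0.15), Snhg8 (0.23) and Mutyh (0.30). With so small a spread, a small distance says less about likeness.

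Some reads of these genes cannot be assigned with certainty, since the library kit does not mark strand. Exons of Dll1 share 867 bases with A930024N18Rik on the other strand, those of Notch1 share 1068 bases with 0610009E02Rik, and those of Notch3 share 488 bases with the antisense gene Gm17276. Of these 3 partners, 0610009E02Rik had 12 to 21 counts a group and Gm17276 had 2 to 30.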

How the data were processed

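RNA was read in 12 libraries of mouse mammary epithelium. RNA came from an RNeasy kit and libraries from the TruSeq RNA v2 protocol, which does not mark strand, for an Illumina HiSeq 2000, per the labels' protocols. Per the submitters' processing notes, the tools include CASAVA 1.8.2 and featureCounts, and the build is mm10; for the aligner, annotation and strand setting the sources used here give nothing. The authors deposited raw counts, whole numbers of reads assigned to each gene, for 27179 genes with their lengths. The tables of single libraries and of the series differed at 0 values. Rows with a gene number but no symbol (859) held 0.150% of all counts and stayed in the fit.

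The main test was the robust quasi-likelihood F test of edgeR 4.0.16 (R 4.3.3). Genes were first filtered by edgeR's default rule by group, which kept 14903, and libraries were scaled with TMM factors. All 12 libraries were fitted together with a mean for each of the 4 groups (8 residual degrees of freedom), the contrasts were the 5 comparisons of the report, and called means an adjusted p (Benjamini-Hochberg, over all tested genes) under 0.05. SE is the log2 fold over the square root of F. Biological variation, as the common coefficient, was 32.6%. The steps were tested on simulated data. With 3 replicates a group, groups are called not overlapping where every library of 1 lies above every library of the other. Ratios of low counts have exact 95% intervals, which cover counting error only.

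The 10 genes, the pathway and marker lists and the comparisons were chosen with earlier results of these data known. Named genes were the 10, Foxp1 and, per pathway list and comparison, up to 4 called genes with the largest fold, or those with the lowest p. Alternatives were library size alone, RLE factors, no filter, a filter of CPM above 1 in 3 libraries, DESeq2 1.42.0, limma-voom (limma 3.58.1), the compared libraries alone, leaving out each library and the replicate block. For the other pathway genes and Trp63 they were added after seeing the data.

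Replicate numbers are shared between groups. Deviations of same-numbered libraries from their group means correlated at 0.31, 0.42 and 0.47 between luminal and basal controls. Between luminal knockout-labelled and control libraries they correlated at 0.36, 0.30 and 0.53, so the numbers were taken to pair libraries in both. In the other comparisons at least 1 pair was below 0.1. The main fit does not use this pairing, so its SE and p-values leave it out. The replicate block, an alternative, uses it and called 1097 genes between knockout-labelled and control luminal cells in place of 451. Pairs of replicates differed beyond sampling noise. Positions, promoter sequences and motif shares are from RefSeq on GRCm38.p6, and exon overlaps from GENCODE M21.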

Additional observations from a re-analysis of the deposited data

Results flagged for a closer look

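Notch4 was flagged because its groups did not overlap and its knockout-labelled libraries moved in opposite directions in the 2 cell types. Over all tested genes the groups did not overlap for 12.4% in basal and 25.4% in luminal cells. The share of genes that did so in opposite directions was not counted. In basal cells all 3 knockout-labelled libraries, at 2.63 to 3.80 CPM, lay above all 3 controls, at 1.79 to 2.28 CPM. In luminal cells all 3 lay below, at 1 to 1.25 CPM against 1.87 to 2.50 CPM. The difference between these effects was tested and did not pass after adjustment (log2 difference -1.55, SE 0.42, adjusted p = 0.171, edgeR), and it ranged from -1.64 to -1.35 over the fits that left out 1 library. These values rest on 41 to 91 counts a group. The endothelial markers, whose cells are known to express Notch4, had a median log2 fold of 0.12 for the basal contrast and of -1.2 for the luminal one. In either contrast 0 of 14 were called. An unadjusted p under 0.05 was found for 2 in the basal contrast and for 7 in the luminal one. Other lists moved as well, with medians for the basal and luminal contrasts of 1.05 and -0.9 for pericyte markers. Fibroblast markers had 2.45 and -0.43, and macrophage markers -0.23 and -0.98. The part of these lists in the Notch4 values was not tested.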

How the results depend on the processing

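Of the alternatives to the values of the 10 genes, 708 kept direction and side of the threshold, 14 lost and 3 gained a call, and 25 turned direction, none of these a called value; for the other named genes 540 kept both, 81 lost a call and 3 gained 1. Where the cause of a change is not evident from fewer samples or genes, it was not tested. By DESeq2 the number called was 1 in place of 0 in basal cells and 1 in place of 0 for the interaction, Notch1 each time. Leaving out 1 library gave 6 to 8 genes called between cell types in controls, 6 to 7 in knockout-labelled cells, 0 to 0 between knockout-labelled and control basal cells, 0 to 1 in luminal cells and 0 to 0 for the interaction. With the replicate block 1 gene was again called in luminal cells, Jag1, and the block changed no call of the 10 genes in any comparison. For Notch2, luminal against basal in controls, the log2 fold was 0.01 by limma-voom, 0 with the replicate block and -0.40 to 0.44 on leaving out libraries.

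Other directions turned on leaving out a library. For luminal against basal knockout-labelled cells Hey1 ranged from -0.08 to 0.28 and Notch2 from -0.03 to 0.53. Between knockout-labelled and control basal cells Jag1 ranged from -0.13 to 0.38, Jag2 from -0.14 to 0.49 and Notch2 from -0.52 to 0.27. In luminal cells Notch2 ranged from -0.19 to 0.41, Heyl from -0.67 to 0.03, Hes1 from -0.39 to 0.13, Hey1 from -0.99 to 0.48 and Dll1 from -0.34 to 0.04. The interaction ranged from -1 to 0.35 for Notch3, -0.18 to 0.65 for Notch2 and -1.35 to 0.11 for Hey1.

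The number of all genes called in basal cells was 100, and 59 with library size alone, 417 by DESeq2, 236 with the replicate block, 151 with the compared libraries alone and 17 to 122 on leaving out a library. In luminal cells it was 451, and 1089 by DESeq2, 1097 with the block, 199 with the compared libraries alone and 127 to 589 on leaving out a library. For the interaction it was 41, and 356 by DESeq2, 22 by limma-voom, 106 with the block and 10 to 86 on leaving out a library. Library size alone moved the median log2 fold of all genes between knockout-labelled luminal and basal cells from 0.033 to 0.146. Low counts limit the precision of Notch4, Dlk1, Dlk2, Dtx1 and Mfng, among others.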
